A study of Mus musculus with 27 samples.

Results

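Olfactory and vomeronasal receptor genes make up 1428 of the 20156 genes in the expression table of this reprogramming series. They were taken by symbol, as rows named Olfr, Vmn1r or Vmn2r followed by a number. Of these, 1108 are olfactory receptor (Olfr) genes, 201 are type 1 vomeronasal receptor (Vmn1r) genes and 119 are type 2 vomeronasal receptor (Vmn2r) genes. The Olfr genes were divided by position into 123 class I genes, all in the chromosome 7 array that holds the beta-globin genes, and 985 class II genes elsewhere.

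These genes encode G protein-coupled receptors that detect odorants in the nose and pheromones in the vomeronasal organ. A mature olfactory sensory neuron expresses a single receptor allele and keeps the others silent in compact chromatin marked by H3K9me3, while fibroblasts and pluripotent cells are not known to use these receptors. H3K4me3 is a mark of active and poised promoters, H3K27me3 is the mark laid by Polycomb repressive complex 2, and H3 itself reports nucleosomes.

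The series followed mouse embryonic fibroblasts (MEFs), incompletely reprogrammed cells (pre-iPSCs) and induced pluripotent stem cells (iPSCs). The MEFs came from E13.5 embryos hemizygous for an Oct4-GFP transgene and a Rosa26 allele, on a labelled background of CBA/CaJ and C57BL/6J, and the study's methods add a cross to females of a further strain. The pre-iPSCs and iPSCs were made from such MEFs with the Yamanaka factors, from a pair of stable pre-iPSC clones and the iPSCs derived from them. The clone behind each library is not given in the sources used here, so the spread between replicates may hold clone differences. Both reprogrammed cell types were grown on MEF-derived feeder layers, whose cells their libraries may hold as well, and the share of feeder cells was not measured. H3, H3K4me3, H3K27me3 and RNA had 2 replicate libraries per cell type, and H3K9me3 had 1, so that 21 ChIP and 6 RNA libraries were analysed. The study's methods call the replicates biological, the culture or clone behind each is not given, and the p-values below measure only the spread between these libraries. A permutation test of 2 against 2 libraries cannot go below 0.333, so only the tests fitted across all promoters or genes are given.

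MEF chromatin was digested with another amount and time of MNase than that of the reprogrammed cells. Digestion and cell type cannot be told apart in any ChIP comparison with MEFs. The H3 libraries held 67362868 to 108211816 reads in called nucleosomes and those of the 3 modifications 12007350 to 15222040. H3 replicate 1 of the pre-iPSCs had the most reads, and its signal followed base composition more steeply than that of the other libraries. The H3 tests are therefore given with and without it, whereas the ranking of receptors by mean H3 and the cluster levels include it. The summed level of 6 fibroblast genes was 4126 to 4234 FPKM in MEFs, 90.4 to 282 in the pre-iPSCs and 201 to 230 in the iPSCs, and that of 6 pluripotency genes 0.0233 to 0.904, 608 to 3522 and 1726 to 1918. In pre-iPSCs the pluripotency sum was nearly all Pou5f1 (378 and 3184 FPKM) and Tdgf1 (228 and 333), while Nanog, Zfp42 and Esrrb lay between 0 and 0.519 FPKM there and between 49.5 and 73.6 in iPSCs, and Dppa5a at 1.70 and 5.01 against 725 and 842. Pou5f1 is the Oct4 gene, among the factors used for reprogramming, and introduced and endogenous transcripts were not separated. Of the olfactory neuron markers, 5 were in the table. The channel genes Cnga2 and Cnga4 and Stoml3 lay between 0 and 0.225 FPKM in all libraries, and Omp and Gng13, the pair that could be tested, were both called higher in pre-iPSCs than in MEFs, with values given below.

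The receptor genes were arranged in 75 clusters on 19 chromosomes when starts within 500 kb were joined, and 32 clusters of at least 10 genes held 1285 of them. The largest held 223 class II genes over 5071 kb (chr2:85171124-90241831, mm9), and the class I array followed with 123 genes over 2893 kb (chr7:109625287-112517831). Neighbouring starts lay a median of 25.3 kb apart, and 18 promoter windows overlapped that of another receptor gene. A promoter here is the 2001 bp window centred on the annotated start. For most receptors this start is the start codon: 1148 models had a length divisible by 3, and of the 1000 of these under 1000 bp, 988 ran from ATG to a stop codon. The windows thus cover upstream sequence and, for these short genes, most or all of the coding exon, and the windows can miss a true promoter that lies farther upstream. In GENCODE, which matched 1405 of the genes, the start of 53 lay over 1000 bp upstream.

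These windows were poorer in GC than other promoters. Their median GC content was 37.9%, with 9 CpG dinucleotides per window, against 51.8% and 66 over all genes. The 1876 other genes listed at 0 FPKM in all libraries lay between, at 44.1% and 17. Class I windows had a median of 40.6% GC and 15 CpGs, class II 38.2% and 9, Vmn1r 37.3% and 8, and Vmn2r 34.8% and 7. Receptor families also hold near-identical copies, and reads were kept only where they matched the genome once. The share of 31-base words found once in mm9 had a median of 86.2% per receptor window, from 93.2% in class I to 88.1% in class II, 75.2% in Vmn2r and 69.6% in Vmn1r, against 98.7% over all genes. Other genes listed at 0 FPKM had a median of 93.8%, with a lower quartile of 69.2% where that of receptors was 70.4%. Some windows could hardly be measured: 51 receptor promoters had no H3 read in any of the 6 H3 libraries, 34 of them Vmn1r, 15 Vmn2r and 2 class II, and at most 18.4% of the words in any of them were unique. Such windows were not particular to receptors, as 114 of the 1876 other genes listed at 0 FPKM also had no H3 read.

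The range of sequence is shown by 200-base stretches of coding exon, chosen as the richest in CpG, from the receptor of highest H3K4me3 (Olfr94, chr17:37334078-37334277, minus strand, 28 CpGs), from the receptor with the lowest adjusted p for a rise in H3K4me3 (Olfr523, chr7:147362258-147362457, plus strand, 10 CpGs) and from the receptor with the largest fall (Olfr1299, chr2:111504385-111504584, plus strand, 3 CpGs). All are mm9 sequence in the direction of the gene, with CG in capitals.
Olfr94: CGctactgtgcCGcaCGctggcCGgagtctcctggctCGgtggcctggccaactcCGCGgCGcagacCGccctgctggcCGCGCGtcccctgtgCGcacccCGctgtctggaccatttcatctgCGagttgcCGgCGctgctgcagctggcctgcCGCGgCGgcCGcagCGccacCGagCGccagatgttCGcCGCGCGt
Olfr523: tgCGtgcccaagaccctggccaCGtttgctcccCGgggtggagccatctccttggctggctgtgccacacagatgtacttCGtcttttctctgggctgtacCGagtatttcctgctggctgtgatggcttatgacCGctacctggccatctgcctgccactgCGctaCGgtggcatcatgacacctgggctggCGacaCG
Olfr1299: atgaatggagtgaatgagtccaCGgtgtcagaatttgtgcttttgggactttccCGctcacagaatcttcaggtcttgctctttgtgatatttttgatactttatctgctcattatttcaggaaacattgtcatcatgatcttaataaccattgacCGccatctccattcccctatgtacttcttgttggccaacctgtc

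For the receptors with the highest transcript levels, the 250 bases before the annotated start are shown in the same way. The stretch of Olfr613 (chr7:110698632-110698881, plus strand) holds a TATAAA motif and 1 CpG, and that of Olfr985 (chr9:39935625-39935874, minus strand) holds 1 CpG and no TATAAA on either strand.
Olfr613: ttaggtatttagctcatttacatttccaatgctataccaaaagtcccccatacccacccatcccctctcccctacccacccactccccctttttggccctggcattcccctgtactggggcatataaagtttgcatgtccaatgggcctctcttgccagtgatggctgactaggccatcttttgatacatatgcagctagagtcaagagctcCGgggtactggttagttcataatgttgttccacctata
Olfr985: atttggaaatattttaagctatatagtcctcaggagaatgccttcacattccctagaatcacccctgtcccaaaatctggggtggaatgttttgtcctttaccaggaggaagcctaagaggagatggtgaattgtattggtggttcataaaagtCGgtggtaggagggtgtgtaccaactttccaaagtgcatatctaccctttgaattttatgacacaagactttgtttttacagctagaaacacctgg

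Over these 250-base stretches, TATAAA stood on either strand in 37.3% of receptor genes, against 24.6% of the 1876 other genes listed at 0 FPKM in all libraries and 11.7% of all genes. TAATTA, the core of many homeodomain sites, stood in 16.3%, 8.0% and 4.26%. Both motifs are made of A and T, in which the receptor sequences are rich. A letter match is not a bound site.

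The first question is how much H3 the receptor promoters held in each cell type. Levels are reads of nucleosome calls with their dyad in the window, scaled to the window length in kilobases and to the reads in calls of the library (RPKM). The median receptor promoter held 0.356 and 0.356 RPKM in the 2 MEF libraries, 0.0693 and 0.334 in the pre-iPSC libraries and 0.212 and 0.304 in the iPSC libraries. The MEF libraries lay together, whereas the pre-iPSC libraries lay far apart and on both sides of the iPSC libraries. The median over all genes went another way, at 0.289 and 0.278, 0.660 and 0.274, and 0.542 and 0.319 RPKM. Gene bodies of the receptors gave similar medians to their promoters, 0.345 and 0.331 RPKM in the MEFs, 0.0794 and 0.315 in the pre-iPSCs and 0.235 and 0.297 in the iPSCs. The median receptor gene is 948 bp long, so most bodies lie within the promoter window and share its reads.

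**Figure D1:**
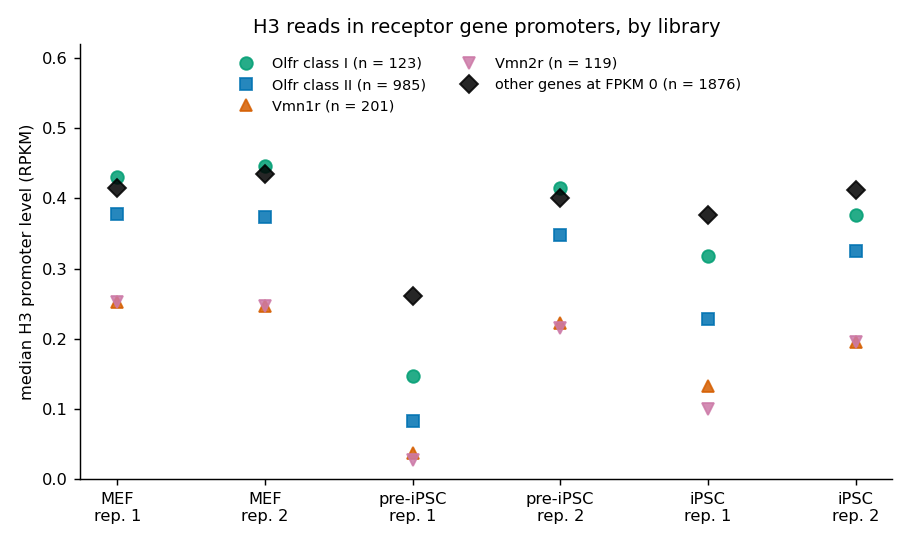
Median H3 level of the promoter windows (RPKM, vertical axis) in each of the 6 H3 libraries (horizontal axis) for the 4 receptor families and for other genes listed at 0 FPKM; each point is a median over genes. In every library the class I median lies above the class II median and both Vmn medians lie lowest, and replicate 1 of the pre-iPSCs lies lowest for every group.

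Olfactory receptor families lay above the vomeronasal families in all 6 libraries. Class I promoters had the highest median H3, between 0.148 RPKM in pre-iPSC replicate 1 and 0.447 in MEF replicate 2, and class II followed at 0.0831 to 0.378. Vmn1r promoters had medians of 0.0369 to 0.252 RPKM and Vmn2r promoters 0.0277 to 0.252, with equal medians in both MEF libraries and in iPSC replicate 2. This order of olfactory over vomeronasal genes is also the order of their unique sequence. Across the 1428 receptors the rank correlation of H3 with the unique share ran from 0.547 to 0.823 in the 6 libraries, and that with GC content was 0.612 in pre-iPSC replicate 1 and 0.596 in iPSC replicate 1 against 0.280 to 0.453 in the other 4. The points of each correlation come from 1 library and share clusters and base composition, and the part of these properties in the family order was not tested.

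Within bins of GC content, receptor promoters held about as much H3 as promoters of the other genes listed at 0 FPKM. This was compared over windows of at least 90% unique words, of which 587 were receptor windows. The log2 ratio of the bin medians, receptors over other silent genes, had a median of -0.0047 over 36 pairs of bin and library, with 16 above 0 and 18 below. In pre-iPSC replicate 1 the receptor median rose from 0.0554 RPKM under 35% GC to 1.09 over 45% GC. In MEF replicate 1 it went only from 0.400 to 0.526 over the same bins, and in pre-iPSC replicate 2 from 0.364 to 0.534. Other silent genes moved alike in pre-iPSC replicate 1, from 0.0623 to 1.20 RPKM over the same bins.

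**Figure D2:**
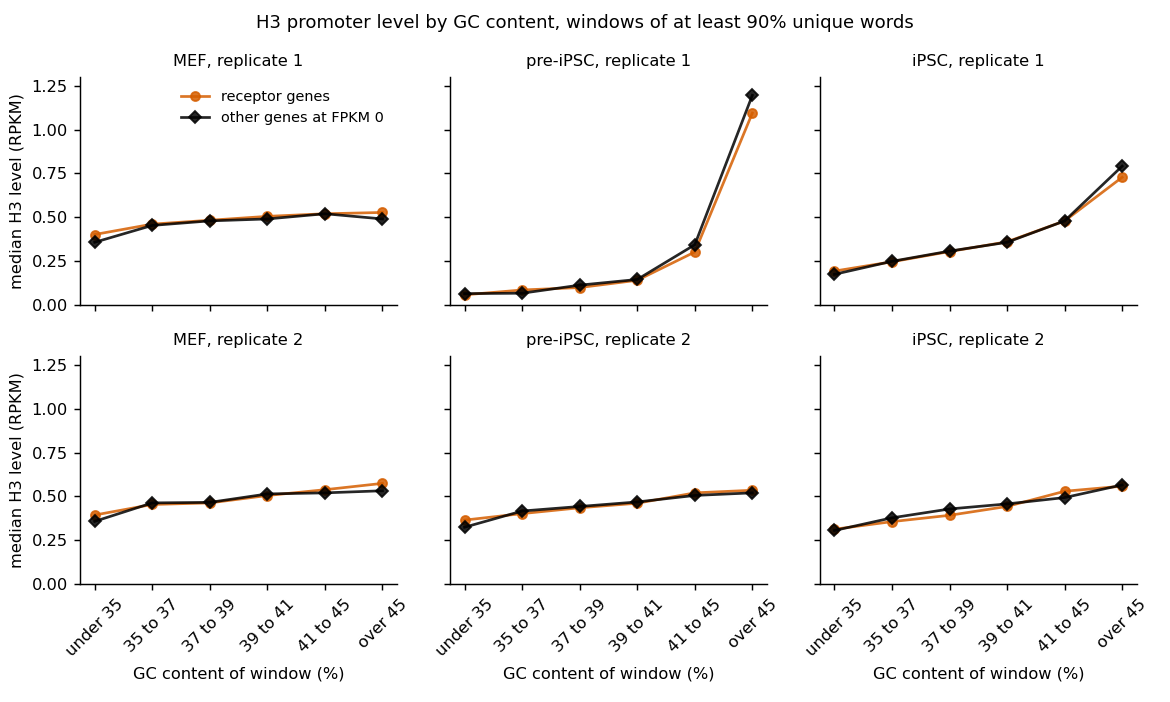
Median H3 promoter level (RPKM, vertical axis) by GC content of the window (horizontal axis, bins in percent) in each H3 library, for receptor genes and other genes listed at 0 FPKM, windows of at least 90% unique words. The curves of both groups lie close together in all panels, and that of pre-iPSC replicate 1 climbs from 0.0554 to 1.09 RPKM for receptors.

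No receptor promoter passed the test for a difference in H3. edgeR's quasi-likelihood test called 0 of the 1339 receptor windows with a mean of at least 5 reads in any of the 3 comparisons, against 0.0% of all 19651 windows in each of them. At an unadjusted p under 0.05 there were 6 receptor windows between pre-iPSCs and MEFs, 0 between both reprogrammed cell types and 2 between iPSCs and MEFs, beside 369, 10 and 88 of all 19651 windows, and DESeq2 also called 0. These unadjusted counts moved with the fit, to 348, 11 and 33 receptors (1395, 61 and 670 of all windows) with the replicate block and to 95, 60 and 29 (1919, 1428 and 1221) with a GC offset, again with 0 calls after adjustment. Fits of 2 cell types alone gave 5, 0 and 53 (632, 1 and 2871), also with 0 calls. The main fit takes 1 spread from all 3 cell types, including the pre-iPSC libraries that lay far apart. Its 0 calls therefore do not show that H3 was equal. The median log2 difference of the receptors was -0.77 for pre-iPSCs against MEFs and -0.45 for iPSCs against MEFs, against 0.82 and 0.60 over all windows, and under TMM scaling -0.95 and -0.85 against 0.06 and 0.05. For iPSCs against MEFs the medians were -0.22 and 0.12 without iPSC replicate 1 and -0.72 and 0.92 without iPSC replicate 2. With the GC content of the windows as an offset the receptor medians were -0.11 in both comparisons. Without pre-iPSC replicate 1 there were 0 receptor calls, and the receptor median for pre-iPSCs against MEFs was -0.11. With pre-iPSC replicate 1 alone against the MEFs, its spread taken from the other cell types, the same test called 938 receptor windows lower (70.1%, against 9.52% of all windows) and 17 higher (1.27%, against 44.9%), so those calls rest on that single library.

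H3K4me3 at receptor promoters was far under the level over all genes. The median H3K4me3 level of receptors was 0.291 and 0.315 RPKM in the MEFs, 0.228 and 0.241 in the pre-iPSCs and 0.231 and 0.203 in the iPSCs. Over all genes these medians were 1.498 and 1.18, 1.06 and 1.00, and 1.11 and 1.01 RPKM. Other genes listed at 0 FPKM lay near the receptors, between 0.321 and 0.384 RPKM. Only 1 receptor promoter had a mean above 1 RPKM of H3K4me3, against 58.7% of all promoters.

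Median H3K27me3 was 0.299 and 0.263 RPKM in the MEFs, 0.245 and 0.265 in the pre-iPSCs and 0.251 and 0.258 in the iPSCs, close to the 0.224 to 0.322 over all genes and under the 0.416 to 0.449 of other genes listed at 0 FPKM. Within bins of GC content, receptor medians were below theirs in 28 of 36 pairs of bin and library, above in 1 and equal in the rest, with a median log2 ratio of -0.18. In the bin over 45% GC, MEF replicate 1 gave 0.561 RPKM for receptors and 0.711 for the others, and MEF replicate 2 gave 0.689 and 0.788. The median log2 ratio over the bins was -0.29 and -0.22 in the MEF libraries, -0.05 and -0.22 in the pre-iPSC libraries and -0.09 and -0.06 in the iPSC libraries. In the bin under 35% GC the ratios were -0.17 and -0.19 for the MEF libraries, 0.19 and -0.22 for the pre-iPSC libraries and 0 for both iPSC libraries. Each bin median is a small number of reads, so the ratios move in steps and ties arise. The bins of 1 library share its reads and the replicates share the genes, so these counts are a description.

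Median H3K9me3, with 1 library per cell type, was 0.363 RPKM in the MEFs, 0.270 in the pre-iPSCs and 0.286 in the iPSCs. By family in the same order, class I had 0.443, 0.348 and 0.368 RPKM, class II 0.403, 0.309 and 0.286, Vmn1r 0.201, 0.193 and 0.204, and Vmn2r 0.242, 0.154 and 0.164. The MEF library had the highest value in each family except Vmn1r, where the 3 lay close together. In the MEF library, GC-binned receptor medians were above those of other silent genes in 5 bins and below in 0. The median log2 ratio there was 0.14. In the pre-iPSC library they were above in 2 and below in 1, and in the iPSC library equal in all 6. Each bin median is a small number of reads, so the ratios move in steps of about 1 read and ties arise.

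Receptor clusters began with a step down in every library. At the 64 outer edges of the 32 clusters of at least 10 genes, the 200 kb inside was compared with the 200 kb outside. Median H3 went from 0.405 RPKM outside to 0.315 inside in MEF replicate 1 and from 0.403 to 0.307 in replicate 2, and from 0.324 to 0.139 in pre-iPSC replicate 1 and from 0.406 to 0.292 in replicate 2. In the iPSC libraries it went from 0.370 to 0.226 and from 0.409 to 0.278. The inside was the lower side at 49 to 53 of 64 edges. H3K4me3 was lower inside at 49 to 52 of the 62 to 64 edges with reads on both sides, and H3K27me3 at 47 to 52. H3K9me3 in MEFs had the smallest step, from 0.381 to 0.354 RPKM with a lower inside at 42 of 64 edges, while the pre-iPSC library went from 0.397 to 0.284 and the iPSC library from 0.369 to 0.295. GC content moved with the step, from 42.5% in the bin 50 to 100 kb outside to 39.7% in the bin 50 to 100 kb inside. Only uniquely mapped reads were kept, and the share of unique sequence was not measured across the edges. Among the 32 clusters, the median promoter level followed the unique share at rank correlations of 0.524 (H3K27me3) to 0.670 (H3). The part of GC content or unique sequence in the step was not tested.

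**Figure D3:**
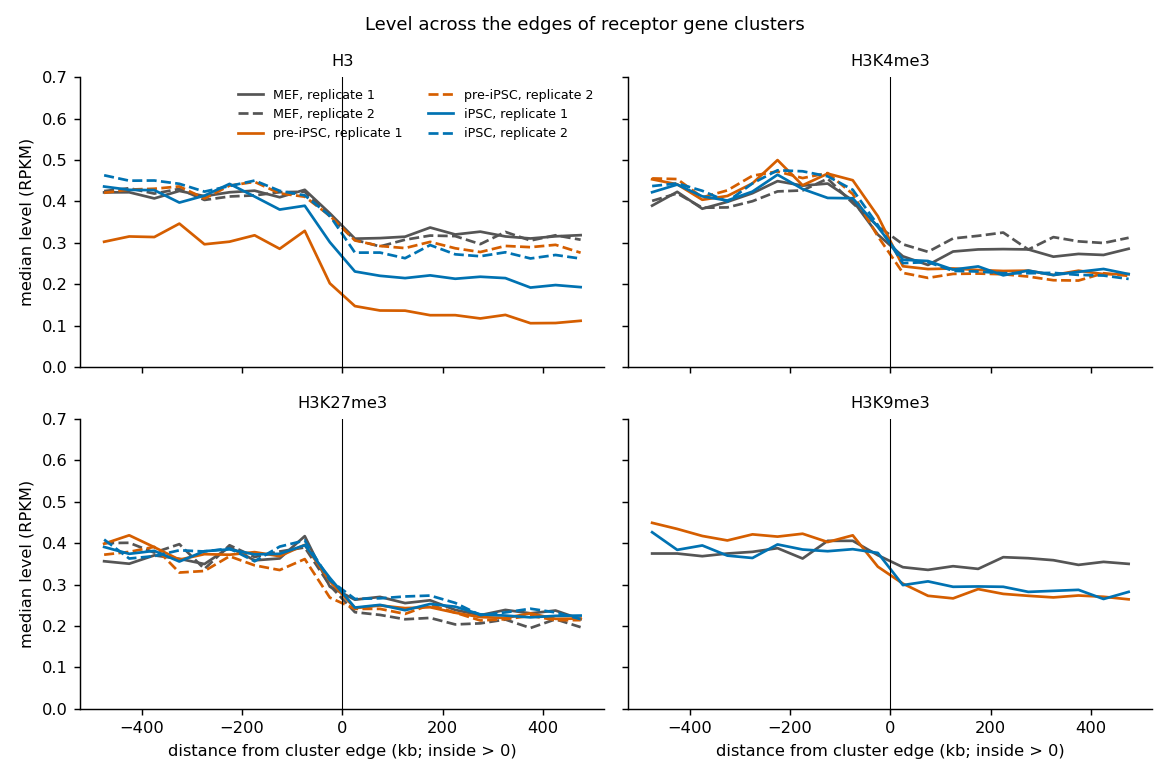
Median level (RPKM, vertical axis) in 50 kb bins across the edges of receptor clusters of at least 10 genes (horizontal axis, distance from the outermost receptor start in kb, inside above 0), for H3, H3K4me3, H3K27me3 and H3K9me3; each line is 1 library. All lines fall at the edge, least in the H3K9me3 library of MEFs, and the H3 line of pre-iPSC replicate 1 lies below the others.

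Levels differed between clusters, and so did their sequence. For the 32 clusters, the level is the cluster median of each gene's mean over the libraries of a mark. For H3 it was lowest, at 0 RPKM, in a Vmn1r cluster of 42 genes (chr7:20686507-23657166), where the median window had 1.57% unique words. It was highest, at 0.438 RPKM, in a cluster of 19 class II genes (chr7:147347909-147891090) at 46.0% GC. The last cluster, which holds Olfr522, Olfr523 and Olfr524, also had the highest H3K9me3, 0.518 RPKM. Receptors near other genes had higher levels: the 18 within 10 kb of another gene had a median H3K27me3 of 0.467 and 0.558 RPKM in MEFs, against 0.262 and 0.230 for the 629 beyond 200 kb. Their windows were also richer in GC, at a median of 42.0% against 36.4%, and held more unique words, at 93.2% against 87.4%. The part of either in the difference was not tested. Nucleosome fuzziness, the spread of reads around a called dyad, averaged over calls of at least 2 reads, was 30.2 and 31.1 bp for H3 at receptor promoters in MEFs, 23.2 and 30.5 bp in pre-iPSCs and 29.8 and 30.1 bp in iPSCs, with pre-iPSC replicate 1 the lowest.

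A few receptor promoters stood above this floor, and most of those were GC-rich. Olfr94 (chr17:37333751-37334911, 54.0% GC, 87 CpGs), whose CpG-rich exon is printed above, had the highest mean H3K4me3, with 1.29 and 0.709 RPKM in the MEFs, 1.10 and 1.00 in the pre-iPSCs and 1.54 and 1.26 in the iPSCs. The MEF libraries overlapped those of both other cell types, while both iPSC libraries lay above both pre-iPSC libraries, and the gene was listed at 0.156 FPKM in 1 pre-iPSC library and at 0 in the other 5. Its start lies 4.07 kb from Ubd, a ubiquitin-like gene. Olfr222 on chromosome 11 and Olfr95, a neighbour of Olfr94, came next. Olfr222 had 0.666 and 0.709, 0.722 and 0.522, and 1.11 and 1.22 RPKM in MEFs, pre-iPSCs and iPSCs, with both iPSC libraries above the rest.

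The highest H3K27me3 was at Olfr1414, Olfr1412 and Olfr222, and these 3 were the only receptors with a mean above 1 RPKM of this mark, against 3.21% of all promoters. Olfr1414 (chr1:94407625-94415092) had 1.35 and 1.31 RPKM in the MEFs, 0.945 and 1.02 in the pre-iPSCs and 1.18 and 0.812 in the iPSCs. Olfr1412 (chr1:94484909-94485874), in the same cluster of 8 genes, had 1.16 and 1.94, 0.945 and 1.17, and 0.537 and 0.812 RPKM. Its iPSC libraries were the lowest, and it was among the receptors called lower in iPSCs than in MEFs (log2 change -1.21, adjusted p = 0.0077).

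For H3K9me3 the highest receptors were Olfr1339, Olfr62 and Olfr1412, and Olfr1339 was the only one with a mean above 1 RPKM, against 0.208% of all promoters. Olfr1339 (chr4:118407136-118408083) had 0.967 RPKM in MEFs (95% Poisson interval 0.620 to 1.44), 1.35 in pre-iPSCs (0.941 to 1.88) and 0.940 in iPSCs (0.596 to 1.41). The intervals overlap, and here as elsewhere they cover counting error only. Olfr62, in the same cluster, had 0.685, 1.24 and 0.859 RPKM. The highest mean H3 was at Olfr71 (chr4:43718500-43719438, 55.2% GC), with 0.600 and 0.652 RPKM in the MEFs, 2.51 and 0.490 in the pre-iPSCs and 1.12 and 0.579 in the iPSCs. That rank came from pre-iPSC replicate 1, as did those of Olfr524 and Olfr523.

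For H3K4me3 the comparison of cell types was made on the 1001 receptor windows with a mean of at least 5 reads. From MEFs to pre-iPSCs edgeR called 3 receptors higher (0.30% of those tested, against 1.22% of all 18876 windows) and 12 lower (1.20% against 5.66%). From MEFs to iPSCs it called 12 higher (1.20% against 4.44%) and 38 lower (3.80% against 12.4%). Only Olfr1349 was called between pre-iPSCs and iPSCs, as higher in iPSCs, against 0.0795% of all windows.

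The number of falls depended on the scaling. By library total, the median log2 difference over all windows was -0.39 for pre-iPSCs and -0.37 for iPSCs against MEFs, and the receptor medians of -0.35 and -0.39 lay beside them. TMM scaling (trimmed mean of M values), which sets the typical window to no difference, called 5 higher and 0 lower in pre-iPSCs (against 2.79% and 0.625% of all windows) and 19 higher and 3 lower in iPSCs (against 9.04% and 3.43%). All 3 and all 12 receptors called higher were also called under TMM scaling and with a GC offset, whereas 0 of the 12 and 2 of the 38 called lower were called under both. Both settings moved the receptor medians up, to 0.02 and -0.06 under TMM scaling and -0.04 and -0.05 with the GC offset. That shift favours rises over falls, so the contrast is partly set by the scaling. None of the rises in either comparison was called without MEF replicate 1, while some receptors were still called lower in iPSCs. The rises thus rest on both MEF libraries. Total counts with a library left out are given at the end. DESeq2 called 0 receptors in pre-iPSCs and 1 in iPSCs. Of all 18876 windows it called 31 higher and 0 lower in pre-iPSCs, and 116 higher and 4 lower in iPSCs.

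The directions differed in GC content, with overlap. The 12 receptors higher in iPSCs than in MEFs had a median GC content of 48.7% and 33 CpGs, and 10 of them lay over 45% GC, as did 118 of the 1001 tested. The 38 called lower had a median of 35.01% GC and 8 CpGs, and 0 of them lay over 45%. The GC content of the 12 ran from 32.8% to 52.9% and that of the 38 from 32.0% to 44.5%. In pre-iPSCs the 3 called higher lay between 48.1% and 50.9% GC and the 12 called lower between 31.7% and 48.6%, with 1 over 45%. The rank correlation of H3K4me3 with GC content across the 1428 receptors was 0.195 and 0.165 in the MEF libraries, 0.395 and 0.337 in the pre-iPSC libraries and 0.458 and 0.425 in the iPSC libraries. MEF chromatin was digested with another amount and time of MNase than that of the reprogrammed cells, so digestion and cell type cannot be told apart here.

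**Figure D4:**
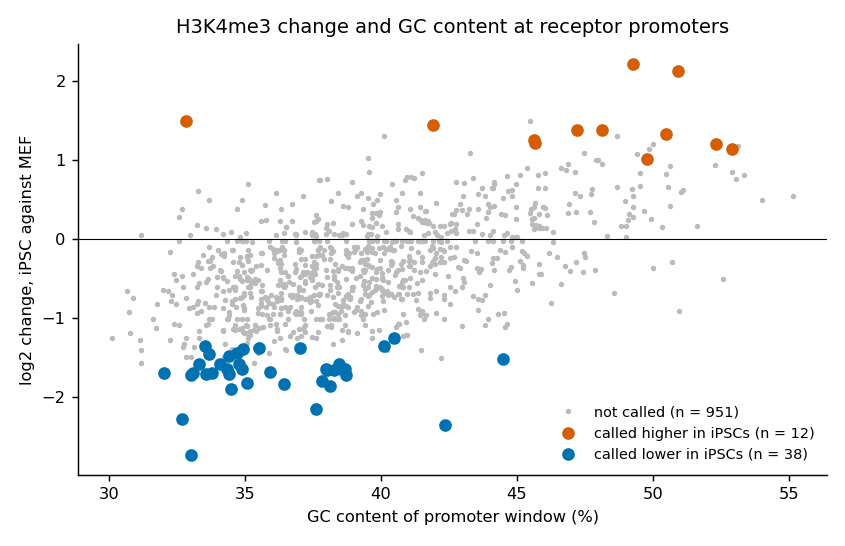
log2 change of H3K4me3 from MEFs to iPSCs (vertical axis) against GC content of the promoter window in percent (horizontal axis) for the 1001 receptors tested; each point is a gene, coloured by edgeR's call at library-total scaling. The 12 higher calls lie mostly over 45% GC and the 38 lower calls all lie under it.

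Receptors named below for a change in a mark were chosen as called and moving the same way in both replicates. Agreement of their libraries is therefore partly set by that choice. Olfr523 had the lowest adjusted p among the rises. Its window (chr7:147362003-147362956, 50.9% GC) had 0.166 and 0.276 RPKM in the MEFs, 0.836 and 0.482 in the pre-iPSCs and 1.11 and 0.852 in the iPSCs, from 4 and 7, 22 and 12, and 29 and 21 reads. Both reprogrammed cell types lay above both MEF libraries. The log2 change was 1.55 in pre-iPSCs (adjusted p = 0.0349) and 2.12 in iPSCs (adjusted p = 7.2e-04), and the latter was also called by DESeq2 (adjusted p = 0.0427) and in 9 of 10 alternatives, over which the adjusted p ran from 2.9e-04 to 0.0558. The gene was listed at 0.199 FPKM in 1 pre-iPSC library and at 0 in the other 5.

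In the class I array, the neighbours Olfr543 and Olfr544, the latter known as a receptor for azelaic acid, were called higher in pre-iPSCs. Olfr543 (chr7:109625287-109626416, 48.1% GC), the outermost gene of the array, had 0.125 and 0.394 RPKM in the MEFs, 0.646 and 1.20 in the pre-iPSCs and 0.576 and 0.812 in the iPSCs (log2 change in pre-iPSCs 1.79, adjusted p = 0.0079). Olfr544 (chr7:109632628-109636821, 82.6% unique words) had 0.375 and 0.158, 0.722 and 0.763, and 0.423 and 0.812 RPKM (1.48, adjusted p = 0.0321). For both genes the pre-iPSC libraries lay above the MEF libraries without overlap. Olfr543 lies 36.2 kb from Rrm1, a subunit of ribonucleotide reductase, and was listed at 0.242 and 0.288 FPKM in pre-iPSCs, at 0.262 in 1 iPSC library and at 0 in the rest.

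The other leading rises in iPSCs were at Olfr179 and Olfr1055. Olfr179 (chr11:58479063-58480046, 49.3% GC) had 0.0832 and 0.0788 RPKM in the MEFs, 0.190 and 0.241 in the pre-iPSCs and 0.423 and 0.365 in the iPSCs (log2 change 2.22, adjusted p = 0.0141), from 4 reads in MEFs and 20 in iPSCs, a ratio of 4.88 with a 95% counting interval of 1.63 to 19.6. Olfr1055 (chr2:86186983-86187921, 32.8% GC) had 0.166 and 0.315 RPKM in the MEFs, 0.342 and 0.442 in the pre-iPSCs and 0.999 and 0.365 in the iPSCs (1.49, adjusted p = 0.0181), and its rise leaned on iPSC replicate 1. It was the only rise of the 12 under 35% GC, and its H3K9me3 was 0.121 RPKM in MEFs (0.0249 to 0.353), 0.425 in pre-iPSCs (0.212 to 0.760) and 1.10 in iPSCs (0.728 to 1.61), with no overlap of the MEF and iPSC intervals. These intervals cover counting error only, in 1 library per cell type. Olfr1349 (chr7:6467185-6468138, 52.3% GC) had 0.375 and 0.788 RPKM in the MEFs, 0.342 and 0.321 in the pre-iPSCs and 1.23 and 1.01 in the iPSCs. Its difference between iPSCs and pre-iPSCs (1.74, adjusted p = 0.0305) was called in 4 of 10 alternatives. It was not called under TMM scaling (adjusted p = 0.165), with a GC offset (0.126) or with the replicate block (0.0711).

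The leading falls rested on few reads. Olfr1299 (chr2:111501610-111505323, 33.0% GC) had 0.333 and 0.512 RPKM in the MEFs, 0.304 and 0.321 in the pre-iPSCs and 0.0384 and 0.0812 in the iPSCs, from 21 reads in MEFs and 3 in iPSCs. Both iPSC libraries lay under all others, the ratio was 0.139 with a counting interval of 0.0266 to 0.467, and the adjusted p of 0.0041 was 0.0199 under TMM scaling. Olfr707 had 16 reads in MEFs and 3 in iPSCs (ratio 0.183, interval 0.0341 to 0.639, adjusted p = 0.0195, 0.0568 under TMM scaling). Olfr1006 had 20 and 4 (log2 change -2.29, adjusted p = 0.0117, 0.0403 under TMM scaling and 0.0927 with the GC offset, where the call was lost).

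In pre-iPSCs the leading falls from MEFs were at Olfr1321, Olfr26 and Olfr860. Olfr1321 (chrX:47080150-47081109) had 0.375 and 0.512 RPKM in the MEFs, 0.0760 and 0.0803 in the pre-iPSCs and 0.346 and 0.0812 in the iPSCs (log2 change -2.44, adjusted p = 0.0130). Its pre-iPSC libraries lay together under the MEF libraries. All 3 falls were lost under TMM scaling, with adjusted p-values of 0.0731, 0.131 and 0.125.

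For H3K27me3, 1069 receptor windows were tested. edgeR called 4 receptors higher (0.374% of those tested, against 3.49% of all 14560 windows) and 3 lower (0.281% against 1.96%) in pre-iPSCs than in MEFs. In iPSCs it called 2 higher (0.187% against 6.47%) and 6 lower (0.561% against 2.05%) than in MEFs. It called 0 between iPSCs and pre-iPSCs, against 0.666% of all windows, with 46 receptors and 1504 of all windows at an unadjusted p under 0.05, and DESeq2 called 0 receptors in the 3 comparisons. TMM scaling gave 2 higher and 4 lower in pre-iPSCs (against 3.0% and 2.42% of all windows) and 0 higher and 13 lower in iPSCs (against 4.9% and 3.51%). The median log2 difference over all windows was 0.06 and 0.14 by library total, and that of the receptors -0.13 and -0.03.

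All 3 falls in pre-iPSCs and all 6 in iPSCs were also called under TMM scaling and with a GC offset. TMM scaling itself moved the receptor medians down, to -0.20 and -0.17, which favours falls over rises. With the GC offset they were -0.03 and -0.02. DESeq2 called none of these falls. Olfr986 (chr9:39994664-39995679), the outermost gene of the chromosome 9 cluster of 99 and 5.24 kb from the zinc finger gene Zfp202, had 0.673 and 0.821 RPKM in the MEFs, 0.210 and 0.113 in the pre-iPSCs and 0.322 and 0.295 in the iPSCs. All reprogrammed libraries lay under both MEF libraries, and the gene was called lower in pre-iPSCs (log2 change -2.17, adjusted p = 0.0018) and in iPSCs (-1.27, adjusted p = 0.0377). It was listed at 0 FPKM in MEFs and at 0.275 and 0.737 FPKM in pre-iPSCs and 0.0875 and 1.39 in iPSCs.

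Vmn1r233 and Olfr96, both on chromosome 17, also fell in pre-iPSCs. Vmn1r233 (chr17:21130691-21131650, 100% unique words) had 0.823 and 1.02 RPKM in the MEFs, 0.350 and 0.302 in the pre-iPSCs and 0.430 and 0.517 in the iPSCs (log2 change -1.49, adjusted p = 0.0131). Olfr96 (chr17:37362072-37363013), near Olfr94 and Olfr95, had 0.711 and 1.05, 0.315 and 0.340, and 0.501 and 0.628 RPKM (-1.43, adjusted p = 0.0195). In both genes the MEF libraries lay above all others. The leading falls in iPSCs were at Olfr1225, Olfr447 and Olfr1384, of which Olfr1384 (chr11:49327120-49328153) had 0.785 and 0.689 RPKM in the MEFs, 0.350 and 0.491 in the pre-iPSCs and 0.322 and 0.258 in the iPSCs (-1.32, adjusted p = 0.0351).

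Of the rises, Olfr524 was called by library total, under TMM scaling and with the GC offset. It lies next to Olfr523 (chr7:147387711-147388667, 53.4% GC) and had 0.374 and 0.525 RPKM of H3K27me3 in the MEFs, 1.40 and 0.983 in the pre-iPSCs and 0.896 and 0.665 in the iPSCs, with every reprogrammed library above both MEF libraries (log2 change in pre-iPSCs 1.39, adjusted p = 0.0084). Vmn2r1, of the small Vmn2r subfamily that vomeronasal neurons express together with another Vmn2r gene, had 0.187 and 0.197 RPKM in the MEFs, 0.420 and 0.718 in the pre-iPSCs and 0.430 and 0.369 in the iPSCs (1.53, adjusted p = 0.0438, 0.0555 under TMM scaling). Olfr1337 (1.42, adjusted p = 0.0476) and, in iPSCs, Olfr561 (1.29, adjusted p = 0.0311) and Olfr1349 (1.24, adjusted p = 0.0418) were lost under TMM scaling, with 0.0622, 0.0587 and 0.0740.

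H3K9me3 had no replicates, so its differences are between single libraries and have no test. Of 1109 receptor windows with a mean of at least 5 reads, 179 were at least 2-fold lower in pre-iPSCs than in MEFs (16.1%, against 7.4% of all 16046 windows) and 22 at least 2-fold higher (1.98% against 14.3%). In iPSCs 194 were lower than in MEFs (17.5% against 6.1%) and 27 higher (2.43% against 19.6%). Between iPSCs and pre-iPSCs 70 were higher (6.31% against 12.9%) and 73 lower (6.58% against 4.57%). The median log2 difference of the receptors was -0.34 for pre-iPSCs and -0.32 for iPSCs against MEFs, that of all windows 0.11 and 0.26, and that of other genes listed at 0 FPKM -0.13 and -0.06. The part of counting error in these shares was not tested.

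Transcripts of receptor genes were nearly absent. In FPKM, fragments scaled to transcript length and library size, the expression table listed 22 and 16 of the 1428 receptors above 0 in the MEF libraries, 27 and 28 in the pre-iPSC libraries and 42 and 45 in the iPSC libraries. These are 1.12% to 3.15% of receptors, against 69.5% to 77.2% of all genes. Across the 6 libraries 111 receptors were above 0 in at least 1, made up of 15 class I, 64 class II, 17 Vmn1r and 15 Vmn2r genes. Above 0 in both libraries of a cell type were 8 receptors for MEFs, 11 for pre-iPSCs and 16 for iPSCs, and 7 reached 1 FPKM in any library. The files hold no read counts for RNA, so the depth behind a 0 is unknown, and in bulk RNA fewer cells that express a gene and less RNA per cell cannot be told apart.

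**Figure D5:**
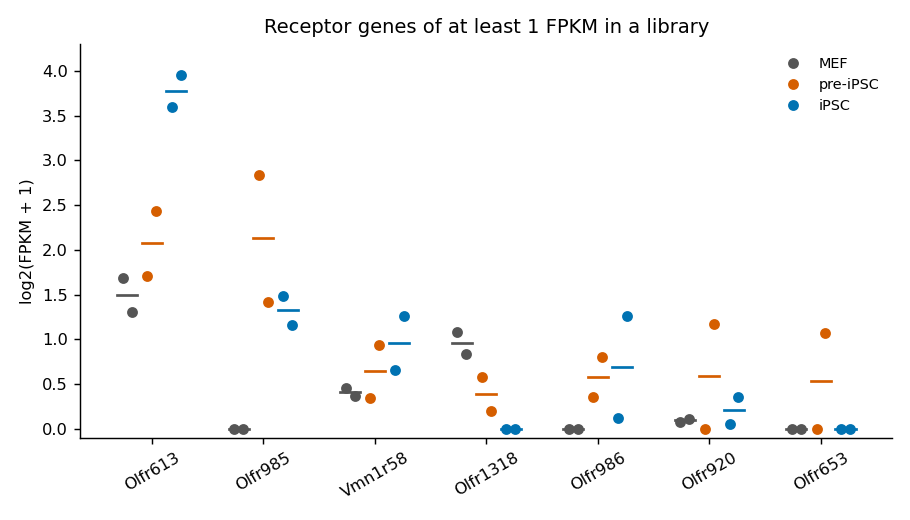
Transcript level as log2(FPKM + 1) (vertical axis) of the 7 receptor genes that reached 1 FPKM in a library (horizontal axis); points are the 2 libraries of each cell type and bars their mean. Olfr613 is highest in both iPSC libraries and Olfr985 is at 0 in both MEF libraries.

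Olfr613 (chr7:110698882-110704018), a class I gene, was the highest, with 2.21 and 1.48 FPKM in the MEFs, 2.26 and 4.41 in the pre-iPSCs and 11.1 and 14.5 in the iPSCs. Both iPSC libraries lay well above the other 4. limma on log2(FPKM + 1) gave a change of 2.28 ± 0.413 (SE) for iPSCs against MEFs (adjusted p = 0.0082, called in 8 of 10 alternatives, 7.39% of genes being called higher in pre-iPSCs than in MEFs, 3.91% in iPSCs than in pre-iPSCs and 10.3% in iPSCs than in MEFs) and 1.70 ± 0.413 against pre-iPSCs (adjusted p = 0.0479, called in 4 of 10). Its promoter window held 0 to 0.158 RPKM of H3K4me3, but only 48.1% of that window was unique sequence, against 90% of the gene body. The gene lies in the class I array, 134 kb from the nearest gene outside the receptor families.

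Olfr985 (chr9:39934509-39935624), a class II gene with 95.7% unique sequence in its window, was listed at 0 in both MEF libraries, at 6.14 and 1.68 FPKM in pre-iPSCs and at 1.80 and 1.24 in iPSCs. All 4 reprogrammed libraries lay above both MEF libraries. The change on the log2(FPKM + 1) scale was 2.13 ± 0.411 for pre-iPSCs (adjusted p = 0.0137, called in 10 of 10 alternatives) and 1.32 ± 0.411 for iPSCs, which missed the threshold (adjusted p = 0.0524). Its promoter had no call for either mark: H3K4me3 was 0.333 and 0.748 RPKM in the MEFs, 0.380 and 0.281 in the pre-iPSCs and 0.269 and 0.406 in the iPSCs, and H3K27me3 was 0.449 and 0.460, 0.560 and 0.416, and 0.501 and 0.332 RPKM. Olfr986 is its neighbour in the same cluster.

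The third receptor with enough signal to test, Vmn1r58, had 0.376 and 0.291 FPKM in the MEFs, 0.273 and 0.919 in the pre-iPSCs and 0.583 and 1.39 in the iPSCs, with no call and only 42.9% of its body unique. Olfr1318 went the other way, at 1.12 and 0.785 FPKM in MEFs, 0.494 and 0.147 in pre-iPSCs and 0 in both iPSC libraries, and was under the mean of 0.5 FPKM that the test required. Olfr920 and Olfr653 reached 1 FPKM in pre-iPSC replicate 2 alone, with 1.26 and 1.11, and were at 0 in its partner. Of the receptors with changed H3K4me3 named above, none reached 1 FPKM.

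Of 15 genes of olfactory signalling, 14 were in the table, of which 2 were listed at 0 FPKM throughout and 6 reached 1 FPKM in a library. Of the 6 tested, 3 rose from MEFs to pre-iPSCs (against 7.39% of all genes tested), 1 was lower in iPSCs than in pre-iPSCs (against 4.71%) and 0 differed between iPSCs and MEFs. The 3, named after their values were seen, were Gng13, a G protein gamma subunit, Ric8b, which promotes the olfactory G protein, and Omp, the olfactory marker protein. Gng13 was listed at 0 and 2.55 FPKM in the MEFs, 17.5 and 37.7 in the pre-iPSCs and 5.09 and 1.83 in the iPSCs (log2 change in pre-iPSCs 3.83 ± 0.668, adjusted p = 0.0098). Omp had 0 and 0.0381 FPKM in the MEFs, 1.43 and 1.06 in the pre-iPSCs and 0.725 and 0.649 in the iPSCs (1.14 ± 0.280, adjusted p = 0.0333), a call at a level of about 1 FPKM. Ric8b had 7.01 and 4.85, 20.0 and 20.4, and 4.74 and 5.75 FPKM, so that its pre-iPSC libraries stood above all others (1.63 ± 0.371, adjusted p = 0.0246), and it was the gene lower in iPSCs (-1.77, adjusted p = 0.0289). The adenylate cyclase gene Adcy3 had no call, and Rtp1 and Rtp2, which carry receptors to the cell surface, were listed at 0 in all 6 libraries.

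Of 17 factors known from receptor choice and its heterochromatin, 15 were tested. In pre-iPSCs 0 were higher and 2 lower than in MEFs (against 7.39% and 9.0% of all genes tested), in iPSCs 0 were higher and 1 lower than in pre-iPSCs (against 3.91% and 4.71%), and in iPSCs 4 were higher and 2 lower than in MEFs (against 10.3% and 15.5%). The lower genes, named after their values were seen, were Ebf1 and Ebf3 in pre-iPSCs, Emx2 in iPSCs against pre-iPSCs, and Ebf3 and Emx2 in iPSCs against MEFs. Emx2, a homeodomain factor, had 7.11 and 7.49 FPKM in the MEFs, 4.52 and 6.96 in the pre-iPSCs and 0.241 and 0.512 in the iPSCs (log2 change from MEFs to iPSCs -2.60 ± 0.361, adjusted p = 0.0032). The higher genes in iPSCs were Suv39h2, an H3K9 methyltransferase, Lbr, the lamin B receptor, Cbx1, a heterochromatin protein, and Kdm1a, a lysine demethylase, with changes of 1.43, 1.81, 1.19 and 1.15 and adjusted p-values of 0.0310, 0.0412, 0.0443 and 0.0428.

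Of 8 genes of vomeronasal signalling, 7 were in the table and were tested. In pre-iPSCs Gng13 was higher and the G protein gene Gnao1 lower than in MEFs, between iPSCs and pre-iPSCs there were 0 calls, and in iPSCs 0 were higher and 3, Gnai2, Gng8 and Meis2, were lower than in MEFs. Over all genes tested, 7.39% were higher and 9.0% lower in pre-iPSCs than in MEFs, 3.91% and 4.71% in iPSCs than in pre-iPSCs, and 10.3% and 15.5% in iPSCs than in MEFs. Gnai2, a widely used G protein gene, had 326 and 546 FPKM in the MEFs, 290 and 224 in the pre-iPSCs and 150 and 93.4 in the iPSCs (log2 change from MEFs to iPSCs -1.82 ± 0.494, adjusted p = 0.0334). The vomeronasal channel gene Trpc2 lay between 0.0732 and 2.40 FPKM with no call.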

How the data were processed

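The authors prepared mononucleosomes with MNase, immunoprecipitated them for H3, H3K4me3, H3K27me3 or H3K9me3, mapped unique reads to mm9 with Bowtie (1.0.1 in the submitters' processing notes) and used GeneTrack to call nucleosomes. Each deposited table gives for each call its position, a read count (whole numbers) and a fuzziness in bp. The deposited expression tables, 1 per replicate, hold FPKM values that the authors made with TopHat2 2.0.4 and Cufflinks 2.0.2. Gene coordinates and symbols came from the expression table.

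Read counts of calls were summed by dyad (start plus 73 bp) over promoters (1000 bp either side of the start) and gene bodies and scaled to the summed reads of each file. Windows with a mean of at least 5 reads were tested with edgeR 4.0.16 (quasi-likelihood, library totals, 3 cell types in 1 fit, Benjamini-Hochberg adjustment over all windows, called at an adjusted p under 0.05), with DESeq2 1.42.0 as an alternative. FPKM were tested as log2(FPKM + 1) with limma 3.58.1 (trend, replicate table as a term, mean of at least 0.5 FPKM, called at an adjusted p under 0.05 and a log2 change of at least 1). H3K9me3 was compared without a test, at 2-fold, since 1 library per cell type was deposited. Poisson and ratio intervals are exact, at 95%. Sequence was read from the mm9 genome with pysam 0.24.0, motifs were searched on both strands, and GENCODE served for starts and coding exons.

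Named receptors were the 3 largest rises and 3 largest falls per promoter comparison among those called and moving the same way in both replicates, all with at least 1 FPKM, and the 3 highest by mean of each mark. Class I genes were the Olfr rows of the chromosome 7 cluster that holds the beta-globin genes. The members, lists and rules were chosen with earlier results of these data known. Alternatives were TMM scaling, no or another low-count filter, the replicate block, calls of at least 2 reads, gene bodies, 500 bp windows, a GC offset, 2 cell types alone, another pseudocount, quantile scaling of FPKM or no FPKM filter, and leaving out each library. The comparison within GC bins, the restriction to windows of at least 90% unique words and the GENCODE starts were added after the data were seen.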

Additional observations from a re-analysis of the deposited data

How the results depend on the processing

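Counts of receptors called are given for H3K4me3 for pre-iPSCs over MEFs, iPSCs over pre-iPSCs and iPSCs over MEFs in this order, where the reported counts are 15, 1 and 50, and for H3K27me3, where they are 7, 0 and 8. TMM scaling gave 5, 0 and 22 for H3K4me3 and 13 for H3K27me3 in iPSCs against MEFs. A GC offset gave 6, 0 and 25, and 13, with 21 higher and 4 lower for H3K4me3 in iPSCs against MEFs where the reported split is 12 and 38. Over all 18876 windows that comparison had 1643 higher and 1026 lower with the offset, and 839 and 2332 as reported. For pre-iPSCs against MEFs the offset called 554 higher and 237 lower. For H3K27me3 in iPSCs against MEFs it called 593 higher and 753 lower of all 14560 windows. DESeq2 gave 0, 0 and 1 for H3K4me3 and 0 for H3K27me3 in both comparisons with MEFs. Windows of 500 bp either side gave 1, 0 and 5 for H3K4me3 and 1 and 2 for H3K27me3 against MEFs, of 277 and 456 receptors tested. Calls of at least 2 reads gave 7 and 23 for H3K4me3 against MEFs and 3 for H3K27me3 in iPSCs against MEFs, of 505 and 698 tested. Of all 17810 windows, this setting called 281 higher and 1475 lower for H3K4me3 in pre-iPSCs, and 762 and 2985 in iPSCs. For H3K27me3 in iPSCs it called 491 higher and 164 lower of all 10471. Gene bodies gave 35 and 0 for H3K4me3 in pre-iPSCs against MEFs and iPSCs against pre-iPSCs, and 4 for H3K27me3 in pre-iPSCs against MEFs, where the 35 were 3 higher and 32 lower of 495 tested, beside 1320 and 1174 of all 18476 gene bodies. A fit of 2 cell types alone gave 14 for H3K27me3 in iPSCs against MEFs, beside 990 higher and 326 lower of all 14545 windows. For expression, a pseudocount of 0.1 gave 0 for iPSCs over pre-iPSCs and 2 for iPSCs over MEFs, and no low-value filter gave 0 for iPSCs against pre-iPSCs. Of all 12401 genes the pseudocount called 486 higher and 609 lower, and 1442 and 1994, in these comparisons. Without the filter 421 were higher and 367 lower of all 16963. The cause was not tested. The named calls gave 446 values under the alternatives, of which 272 stayed past the threshold, 174 did not and 0 changed direction.

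The labels give ChIP libraries of the same replicate number no shared source, and the check of pairing was not met for every pair of cell types: deviations from the group means correlated at -0.029 to 0.104 for H3K4me3 and -0.024 to 0.063 for H3K27me3, and at -0.035, 0.0035 and 0.790 for H3, the last between pre-iPSCs and iPSCs. With the replicate block, H3K4me3 gave 28 for pre-iPSCs against MEFs and 0 for iPSCs against pre-iPSCs, and no other count of receptors called after adjustment moved by over 1.5 times.

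Leaving out 1 library, with a lone library taken to vary like the others, gave 0 to 955 for H3 in pre-iPSCs against MEFs, with 955 without pre-iPSC replicate 2 and 0 without any other. H3K4me3 gave 0 to 16, 0 to 2 and 4 to 40, with 0 without MEF replicate 1 and 1 without either pre-iPSC library for the first comparison, 0 without MEF replicate 2, iPSC replicate 1 or either pre-iPSC library and 2 without iPSC replicate 2 for the next, and 7 without MEF replicate 1, 4 without iPSC replicate 1 and 12 without iPSC replicate 2 for the last. H3K27me3 gave 2 to 9 in pre-iPSCs against MEFs, with 2 to 3 without either pre-iPSC library or MEF replicate 2, and 1 to 14 in iPSCs against MEFs, with 1 without MEF replicate 1, 3 without iPSC replicate 1, and 14 and 13 without pre-iPSC replicates 1 and 2. Expression gave 1 to 1, 0 to 1 and 0 to 2, with 0 for iPSCs against pre-iPSCs without any pre-iPSC or iPSC library and 0 for iPSCs against MEFs without either iPSC library.

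Median levels were 1.29 to 1.44 times as high in windows of at least 90% unique words and 0.479 to 1.01 times with calls of at least 2 reads. Depth is among the limits for the modifications: a named fall rested on as few as 3 reads over 2 libraries.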

Other observations

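Other chemosensory receptor genes, taken by symbol as Taar, Fpr, Tas1r, Tas2r, V1r, V2r, Gucy2d and Ms4a rows, numbered 78 in the table, and 60 of them were listed at 0 FPKM in all 6 libraries. Of the 4 that were tested, Ms4a4d was higher in iPSCs than in pre-iPSCs, with 0.662 and 1.82 FPKM in the MEFs, 0.119 and 0.212 in the pre-iPSCs and 2.27 and 2.19 in the iPSCs (limma, log2 change 1.47 ± 0.336, adjusted p = 0.0381), against 3.91% of all genes tested. There were 0 calls in pre-iPSCs against MEFs (7.39% of all genes higher and 9.0% lower) and in iPSCs against MEFs (10.3% and 15.5%). Ms4a genes are also used by blood cells. Median promoter H3 of these 78 genes was 0.467 and 0.471 RPKM in the MEFs, 0.104 and 0.404 in the pre-iPSCs and 0.292 and 0.409 in the iPSCs, so that pre-iPSC replicate 1 was again the lowest library. edgeR called 0 of 72 tested windows higher and 5 lower for H3K4me3 in iPSCs against MEFs, against 4.44% and 12.4% of all windows, and 2 of 75 higher and 1 lower for H3K27me3, against 6.47% and 2.05%.

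At the 53 receptors whose GENCODE start lies over 1000 bp upstream of the start in the table, the median H3K4me3 at the GENCODE start was 0.250 and 0.315 RPKM in the MEFs, 0.266 and 0.241 in the pre-iPSCs and 0.231 and 0.244 in the iPSCs, and the highest value at any of them was 0.827 RPKM.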
